A study of Ovis aries with 62 samples.

Results

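LIPN, TGM1, ENDOU and Tmprss11g are 4 genes of the late, cornifying layers of stratified epithelium, and their levels were read as 4 of the 16011 genes measured in the ventral rumen wall of sheep. They were chosen by name, as enzymes of cornification, and with earlier results of these data known, so the tests below are not blind to the data. Their gene IDs (ENSOARG00000014420 for LIPN, ENSOARG00000019146 for TGM1, ENSOARG00000019423 for ENDOU and ENSOARG00000008056 for Tmprss11g) were paired with the symbols in tables of the study. The samples came from 62 adult Merino ewes on the same diet of chaffed lucerne and oats, with 1 RNA sequencing library per animal. The animals were tested in 4 blocks of 16, 16, 14 and 16 sheep, and CH4 production, dry matter intake (DMI) and live weight were recorded for each. A sample held the whole thickness of the wall, muscle included, so that fewer cells of a type and less RNA per cell cannot be told apart. The ewes had 4 sires, but the sire of a sheep is not in the labels and no test here accounts for it. Whatever else differed between test blocks cannot be told apart from the block.

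The rumen is lined by a stratified squamous epithelium that is fed from a dividing basal layer and ends in flattened, cornified cells. In cornification, proteins are cross-linked under the cell membrane into a tough envelope, lipids are remodeled at the cell surface, nucleic acids are broken down and surface proteases take part in the shedding of cells. LIPN belongs to a family of acid lipases expressed in differentiating keratinocytes, TGM1 is the membrane-bound transglutaminase that cross-links envelope proteins, ENDOU is a poly(U)-specific endoribonuclease and Tmprss11g is a serine protease of the membrane-anchored, airway trypsin-like family. Levels below are log2 CPM, a gene's reads scaled to library depth on a log2 scale, so that an increase of 1 doubles the level. They are compared between sheep for 1 gene at a time, since gene lengths were not used.

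The libraries held between 4208032 and 12130080 assigned reads, with a median of 7923973, and the median of block 1 (6812020) was below those of blocks 2, 3 and 4 (8215481, 8694507 and 8588581). Epithelial and smooth muscle markers were both detected in every library. In block 1, all 16 smooth muscle markers measured passed the test as higher and all 12 general epithelial genes passed as lower. The summed level of the smooth muscle markers ran from 15323 to 82221 CPM in block 1 (median 38914) and from 11482 to 71727 CPM in blocks 2–4 (median 28270). That of the general epithelial genes ran from 2699 to 6577 CPM (median 4538) against 4360 to 7991 CPM (median 6288). Of 11 matrix and fibroblast genes 8 were higher in block 1, and of 5 genes of dividing cells 3 were higher. MCAM, the 1 gene measured of 6 listed for the endothelium, was higher. LY96, the 1 gene measured of 10 listed as immune, was lower, as were the 3 genes measured of 5 listed for the interferon response. LAMA3, the single basal keratinocyte marker with a symbol, did not pass. No marker was at 0 in a library. Most of the epithelial genes come from lists that the study drew from networks of these same libraries.

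LIPN had the largest SD of the 4 genes over all 62 sheep (1.44). Its level in block 1 ran from 2.14 to 8.37 log2 CPM with a median of 6.36, whereas the medians of blocks 2, 3 and 4 were 8.23, 8.06 and 8.23 and the lowest of those 46 sheep had 6.65. Of the 16 sheep of block 1, 8 lay below all sheep of blocks 2–4 and 15 lay below their median, but the highest sheep of block 1 lay inside the range of the others. The lowest level rested on 29 reads, and the median number of reads was about 572 in block 1 against 2296 in blocks 2–4. The mean was 5.97 ± 1.93 (SD, n = 16) in block 1 and 8.18 ± 0.54 (SD, n = 46) in blocks 2–4.

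TGM1 had the smallest SD of the 4 genes over all 62 sheep (0.55), although ENDOU varied less within blocks 2–4. It ran from 7.75 to 10.43 log2 CPM in block 1 (median 9.57), and the medians of blocks 2, 3 and 4 were 10.14, 10.27 and 10.17 within a range of 9.14 to 10.70. The groups overlapped over most of that range, with 6 of 16 sheep of block 1 below all others and 14 of 16 below their median. The means were 9.47 ± 0.77 (SD, n = 16) and 10.11 ± 0.32 (SD, n = 46).

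ENDOU separated the groups most often. Its level in block 1 ran from 5.19 to 10.02 log2 CPM (median 8.57), against medians of 9.76, 9.68 and 9.76 in blocks 2, 3 and 4 and a range of 9.02 to 10.37. In 10 of 16 sheep of block 1 it was below every sheep of the other blocks, and in 13 of 16 below their median. The means were 8.43 ± 1.40 (SD, n = 16) and 9.74 ± 0.30 (SD, n = 46).

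Tmprss11g ran from 1.93 to 6.78 log2 CPM in block 1 with a median of 4.91. The medians of blocks 2, 3 and 4 were 6.24, 6.31 and 6.44, and their sheep ran from 4.90 to 7.21. Of the 16 sheep of block 1, 8 lay below all others, 12 lay below their median, and 4 lay above it. The lowest level rested on 25 reads. The means were 4.97 ± 1.49 (SD, n = 16) and 6.24 ± 0.57 (SD, n = 46). Across all genes of the table, the median gene had 0 sheep of block 1 below the lowest sheep of blocks 2–4 and 8 below their median. As many below the lowest sheep were found in 1.74% of genes for LIPN and Tmprss11g, 4.18% for TGM1 and 0.57% for ENDOU. For counts below the median, the share of genes was 3.74% for LIPN, 9.2% for TGM1, 16.03% for ENDOU and 23.64% for Tmprss11g. A count below the median as high as that of ENDOU or Tmprss11g was thus common.

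**Figure D1:**
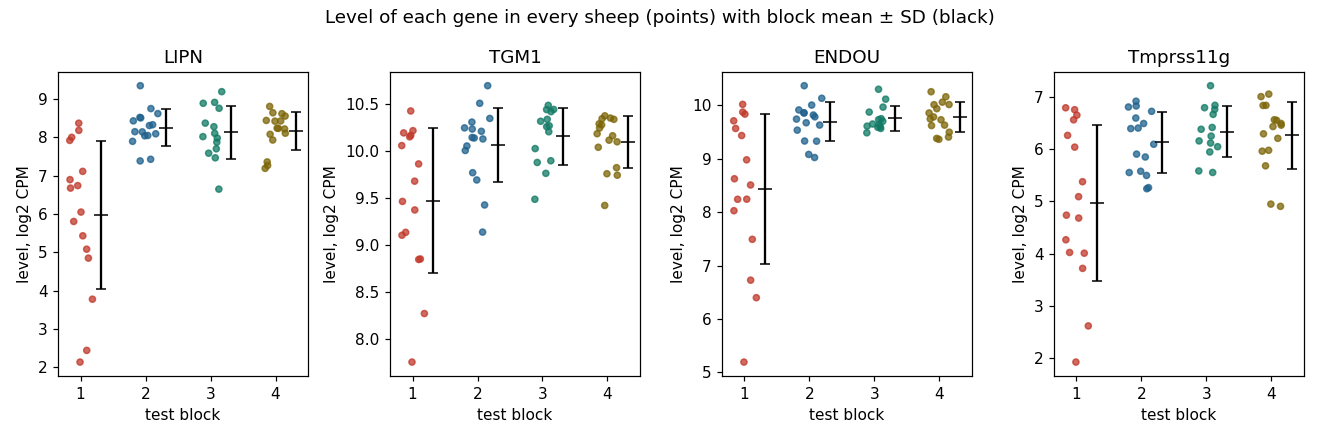
Level of LIPN, TGM1, ENDOU and Tmprss11g (log2 CPM, vertical axes) in each of the 62 sheep by test block, with block mean ± SD in black. Block 1 reaches from the levels of the other blocks down to 2.14 for LIPN, 7.75 for TGM1, 5.19 for ENDOU and 1.93 for Tmprss11g, while blocks 2, 3 and 4 lie at the same height.

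All 4 genes were lower in block 1 than in blocks 2–4. The study placed TGM1, ENDOU and Tmprss11g in its epithelial differentiation cluster and LIPN in its metabolism cluster. It had already reported, from these same sheep, that expression of the epithelial differentiation genes was lower in block 1. On average LIPN was lower by 4.63-fold, with a difference of -2.21 on the log2 scale (SE 0.30, limma adjusted p = 5.6e-08). ENDOU differed by -1.31 (SE 0.21, limma adjusted p = 1.3e-06, 2.48-fold lower) and Tmprss11g by -1.27 (SE 0.25, limma adjusted p = 5.2e-05, 2.41-fold lower). For TGM1 the difference was -0.63 (SE 0.13, limma adjusted p = 1.5e-04), which is 1.55-fold. The 4 of 4 stand against a background of 36.5% of all genes that passed this test and 19.3% that passed as lower, so that a pass in this comparison is common. By size, LIPN ranked 12 from the most lowered of 16011 genes and first among the 1224 genes with a symbol, ENDOU 131, Tmprss11g 147 and TGM1 773. The differences of medians, which the lowest sheep do not pull, were -1.86 for LIPN, -1.47 for Tmprss11g, -1.17 for ENDOU and -0.62 for TGM1.

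Limma assumes the same variance in both groups, and the 4 genes varied more in block 1, the smaller group. A permutation test of Welch's statistic, which does not assume it, gave p = 9e-05 for LIPN, p = 0.00085 for ENDOU, p = 0.0048 for Tmprss11g and p = 0.0068 for TGM1 (2-sided, 100000 permutations). The SE of that statistic was larger than the SE of limma, at 0.49, 0.35, 0.38 and 0.20 in the same order. For single genes this check was made only for the comparison without covariates. The fits against single blocks and with covariates below rest on limma alone.

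Block 1 was lower than each of the other blocks taken alone. LIPN differed by -2.28, -2.16 and -2.19 from blocks 2, 3 and 4 (SE 0.37, 0.38 and 0.37), and ENDOU by -1.26, -1.33 and -1.35 (SE 0.26, 0.27 and 0.26). Tmprss11g differed by -1.16, -1.36 and -1.29 (SE 0.31, 0.32 and 0.31), and TGM1 by -0.59, -0.69 and -0.63 (SE 0.17 each). All 12 differences passed, the weakest being TGM1 against block 2 (limma adjusted p = 0.0068). Of all genes, 22.4% were called against block 2 (12.6% as lower), 24.5% against block 3 (13% as lower) and 30.7% against block 4 (16.5% as lower). The 3 comparisons share the sheep of block 1.

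Among blocks 2, 3 and 4 no difference of the 4 genes passed the test. The block means of LIPN were 8.25, 8.12 and 8.16, those of TGM1 10.07, 10.16 and 10.10, those of ENDOU 9.69, 9.76 and 9.78 and those of Tmprss11g 6.13, 6.33 and 6.26. The limma F test gave adjusted p of 0.98 for LIPN, 0.97 for TGM1, 0.97 for ENDOU and 0.95 for Tmprss11g, with 0.00625% of all genes called.

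The sheep of block 1 lay farther apart than those of the other blocks. The mean absolute deviation from the group median was larger in block 1 by 1.11 log2 units for LIPN (SE 0.18, limma adjusted p = 5.4e-06), by 0.85 for ENDOU (SE 0.12, limma adjusted p = 9.0e-08), by 0.76 for Tmprss11g (SE 0.15, limma adjusted p = 3.5e-04) and by 0.38 for TGM1 (SE 0.084, limma adjusted p = 0.0016). All 4 passed, where 2.04% of all genes did and 2.01% did with a larger spread in block 1. In the order of all 16011 genes by this difference, LIPN ranked 16, ENDOU 42, Tmprss11g 60 and TGM1 289. On residuals from a fit on muscle content, where 0.131% of all genes passed, LIPN still did (limma adjusted p = 0.029), and ENDOU (0.46, adjusted p = 0.10), Tmprss11g (0.33, adjusted p = 0.67) and TGM1 (0.15, adjusted p = 0.69) did not.

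The low values of the 4 genes fell in the same animals. In block 1, the same 4 sheep held the lowest 4 levels of LIPN, of TGM1, of ENDOU and of Tmprss11g, and 1 of them was the lowest for all 4 genes. In 5 sheep all 4 genes were below every sheep of blocks 2–4, in 5 sheep none was, and in 6 sheep 1 to 3 of them were. LIPN parted from the others in single animals. The sheep that was eighth from the bottom of block 1 in LIPN was near the top in TGM1, ENDOU and Tmprss11g (ranks 15, 14 and 14 of 16).

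**Figure D2:**
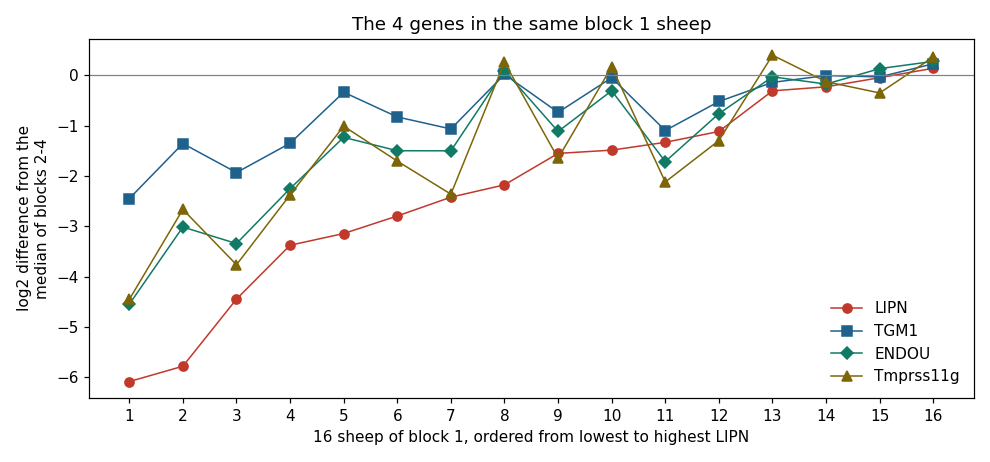
The 16 sheep of block 1 ordered by LIPN (horizontal axis) with the level of each of the 4 genes as the log2 difference from its median in blocks 2–4 (vertical axis, 0 is that median). TGM1, ENDOU and Tmprss11g rise and fall in the same sheep, LIPN lies lowest in the first 8 sheep, and the highest 4 sheep on the right lie close to the median of the other blocks.

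The relations between the genes were closest in block 1. Within block 1, r was 0.98 between TGM1 and Tmprss11g, 0.98 between TGM1 and ENDOU and 0.96 between ENDOU and Tmprss11g (permutation p = 1e-05 for each, the smallest they can give). LIPN had r = 0.91 with ENDOU (permutation p = 1e-05), 0.84 with TGM1 (permutation p = 9e-05) and 0.82 with Tmprss11g (permutation p = 1e-04).

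In blocks 2–4 the relations among TGM1, ENDOU and Tmprss11g held and those of LIPN were weak. TGM1 had r = 0.71 with ENDOU and 0.58 with Tmprss11g, and ENDOU had r = 0.62 with Tmprss11g (permutation p = 1e-05, 5e-05 and 1e-05). LIPN had r = 0.33 with ENDOU (permutation p = 0.026), 0.16 with TGM1 (permutation p = 0.28) and -0.15 with Tmprss11g (permutation p = 0.31). Whether r differs between block 1 and the others was not tested, and the levels range less in blocks 2–4.

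Over all 62 sheep the values were 0.91 for TGM1 and ENDOU, 0.91 for ENDOU and Tmprss11g, 0.89 for TGM1 and Tmprss11g, 0.89 for LIPN and ENDOU, 0.76 for LIPN and TGM1 and 0.72 for LIPN and Tmprss11g (permutation p = 1e-05 for each, and 1e-05 after adjustment over 10 relations). Spearman's rho was 0.79, 0.74, 0.72, 0.60, 0.44 and 0.27 in the same order, the last with permutation p = 0.032. When the 2 sheep at the greatest distance from the median were left out, r was 0.84, 0.84, 0.81, 0.81, 0.64 and 0.58. The pooled values for LIPN with TGM1 and with Tmprss11g rest on block 1.

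The ratio of 2 genes within the same library does not depend on how the library is scaled, and it showed that the 4 genes were not lowered equally. These 6 ratios were added after the data had been seen. The log2 ratio of LIPN to TGM1 differed by -1.58 in block 1 (SE 0.35, permutation p of Welch's statistic 0.00018, 0.0011 adjusted over 6 ratios), and this ratio was below the median of blocks 2–4 in 16 of 16 sheep and below their lowest in 9. The ratio of LIPN to Tmprss11g differed by -0.94 (SE 0.30, permutation p = 0.0046, adjusted 0.0060) and that of LIPN to ENDOU by -0.90 (SE 0.23, permutation p = 0.0012, adjusted 0.0023). The ratio of TGM1 to ENDOU was higher in block 1 by 0.68 (SE 0.17, permutation p = 0.00050, adjusted 0.0015) and that of TGM1 to Tmprss11g by 0.63 (SE 0.20, permutation p = 0.0050, adjusted 0.0060). The ratio of ENDOU to Tmprss11g was 3.46 ± 0.40 (SD, n = 16) in block 1 and 3.51 ± 0.45 (SD, n = 46) in blocks 2–4, a difference of -0.04 with an SE of 0.12 (permutation p = 0.72). LIPN was thus lowered the most, ENDOU and Tmprss11g by an amount between, and TGM1 the least, and ENDOU and Tmprss11g were not told apart. With the muscle mean removed, the ratio of LIPN to Tmprss11g no longer passed (-0.55, permutation p = 0.093), while the other 4 that had passed still did.

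Muscle content was summarized as the mean log2 CPM of 647 genes that the study assigned to muscle from networks of these libraries, and it was higher in block 1 (6.24) than in blocks 2, 3 and 4 (5.84, 5.84 and 5.77). Over 62 sheep the slope on the muscle mean was -2.44 log2 units per unit for LIPN (SE 0.36), -1.62 for ENDOU (SE 0.24), -1.50 for Tmprss11g (SE 0.29) and -1.003 for TGM1 (SE 0.13). All 4 slopes passed (limma adjusted p = 1.0e-05 for Tmprss11g and lower for the others), as did 54.9% of all genes, and 29% of all genes passed with a slope below 0. In block 1 alone r with the muscle mean was -0.72 for Tmprss11g, -0.69 for TGM1, -0.64 for ENDOU and -0.54 for LIPN (permutation p = 0.0024, 0.0028, 0.0074 and 0.032). In blocks 2–4 it was -0.66 for ENDOU, -0.60 for LIPN and -0.59 for TGM1 (permutation p = 1e-05, 1e-05 and 2e-05). For Tmprss11g it was -0.15 there (permutation p = 0.31), and in the single blocks it was -0.33, -0.01 and -0.07. Over all sheep r was -0.69 for TGM1, -0.65 for ENDOU, -0.64 for LIPN and -0.54 for Tmprss11g, with rho of -0.68, -0.70, -0.70 and -0.44.

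**Figure D3:**
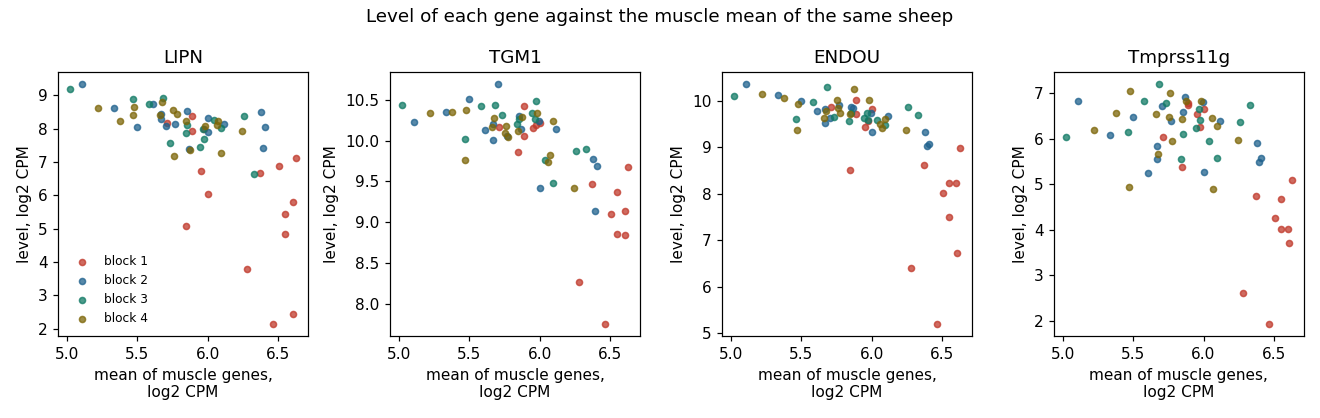
Level of each gene (log2 CPM, vertical axes) against the mean level of 647 muscle genes in the same sheep (horizontal axes), colored by test block. The lowest levels belong to block 1 sheep with a high muscle mean, and outside block 1 Tmprss11g shows little relation (r = -0.15).

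With the muscle mean in the fit, the differences of block 1 became smaller and those of LIPN, ENDOU and Tmprss11g still passed. LIPN differed by -1.56 (SE 0.30, limma adjusted p = 2.6e-04), ENDOU differed by -0.83 (SE 0.21, limma adjusted p = 0.0040) and Tmprss11g by -0.84 (SE 0.27, limma adjusted p = 0.025). These p-values assume equal variance in both groups, and no test without that assumption was made with a covariate. TGM1 differed by -0.28 (SE 0.13) and no longer passed (limma adjusted p = 0.13). In this fit 14.4% of all genes were called and 7.05% were called lower. With 16 textbook smooth muscle markers in place of that list all 4 passed, at -1.93, -1.09, -1.05 and -0.43 for LIPN, ENDOU, Tmprss11g and TGM1, where 22.7% of all genes were called and 11.7% were called lower.

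With the mean of the 12 general epithelial genes in the fit no difference of the 4 genes passed. LIPN differed by -0.73 (SE 0.27, limma adjusted p = 0.12), ENDOU by -0.19 (SE 0.17, adjusted p = 0.58), Tmprss11g by -0.13 (SE 0.24, adjusted p = 0.83) and TGM1 by 0.12 in the other direction (SE 0.10, adjusted p = 0.57), and 2.87% of all genes were called. This list was 0.51 lower in block 1 on the log2 scale, and it includes TMPRSS11A, ELF3, EHF and SPINT1, which are also in the cornification list below. Its part in the block difference was not tested further.

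**Figure D4:**
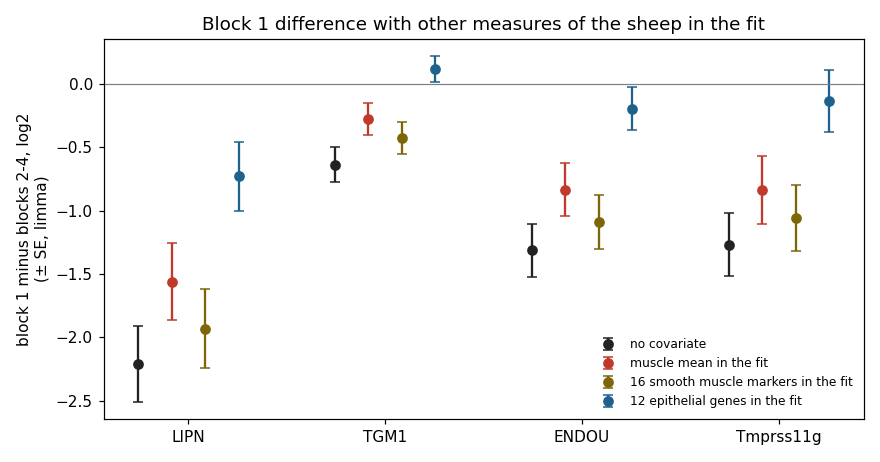
Difference of block 1 from blocks 2–4 (log2, vertical axis, ± SE from limma) for each gene with no covariate, with the muscle mean, with 16 smooth muscle markers and with 12 epithelial genes in the fit. LIPN goes from -2.21 to -1.56, -1.93 and -0.73, and TGM1 from -0.63 to -0.28, -0.43 and 0.12.

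Most of the other cornification genes were also lower in block 1. Of a list of 84 symbols in 6 roles, 38 genes carried a symbol in the table, and 30 of them were lower in block 1, none was higher and 8 did not pass, against 19.3% of all genes called lower. Without the 4 enzymes the count was 26 of 34. All 12 general epithelial genes, 4 of them in this list, were lower as well, so a lower level was not particular to cornification genes. The median difference was -0.60 for these 34 genes and -0.01 for all genes. Symbols come mostly from the study's own gene clusters, so the list is no independent evidence of its direction.

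Among cross-linking enzymes, TGM3, which acts on envelope precursors in the cytoplasm, was lower by nearly the same amount as TGM1 (-0.62, SE 0.18, limma adjusted p = 0.0056), and like TGM1 it did not pass with the muscle mean in the fit (adjusted p = 0.31). Of the 8 lipid genes 6 were lower. They were LIPN, the phospholipase LIPH (-0.92), the ceramidase ACER1 (-0.88), the cholesterol sulfotransferase SULT2B1 (-0.71) and SPTSSB (-0.63) and SPTLC1 (-0.39) of serine palmitoyltransferase, and with the muscle mean in the fit SULT2B1 lost its call (limma adjusted p = 0.17). The lipoxygenase ALOX15B (-0.24, SE 0.14, limma adjusted p = 0.17) and the phospholipase PLA2G4E (-0.34, SE 0.15, limma adjusted p = 0.080) did not pass.

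All 7 proteases and inhibitors were lower. The relatives TMPRSS11B (-1.11, SE 0.18) and TMPRSS11A (-0.91, SE 0.14) came nearest to Tmprss11g, followed by the rhomboid protease RHBDL2 (-0.87) and by the protease matriptase, ST14 (-0.47), with its inhibitors SPINT1 (-0.53) and SPINT2 (-0.37). With the muscle mean in the fit 5 of the 7 passed, and ST14 (limma adjusted p = 0.11) and SPINT2 (adjusted p = 0.18) did not. ENDOU was the single nuclease with a symbol.

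Of 15 envelope and surface protein genes 10 were lower, with the widest differences for PRD-SPRRII (-1.65, SE 0.28), a small proline-rich envelope precursor, and the keratin KRT78 (-1.62, SE 0.24). The calcium-binding genes S100A8 (-0.56), S100A9 (-0.63) and S100A12 (-0.59) also passed, but with the muscle mean in the fit they did not (limma adjusted p = 0.38, 0.47 and 0.49), and 4 of the 15 genes were then lower. The 3 SPRR2-like genes (-0.42, -0.55 and -0.44), S100A2 (-0.12) and KRT13, a keratin of non-cornified mucosa (0.30, SE 0.24, limma adjusted p = 0.34), did not. Of 5 regulators, PRDM1 (-0.65), OVOL1 (-0.35), ELF3 (-0.87) and EHF (-0.55) were lower, and ZNF750 was not called (0.15, SE 0.14, limma adjusted p = 0.42). With the muscle mean in the fit 18 of the 38 genes were lower, LIPN, ENDOU and Tmprss11g among them, and none was higher, against 7.05% of all genes called lower. The 38 genes were not counted in the fit with the general epithelial genes, where none of the 4 enzymes passed. In that fit OVOL1 lost its call (limma adjusted p = 0.71). In spread, 18 of the 38 genes exceeded blocks 2–4, against 2.01% of all genes, and on muscle residuals LIPN was the 1 that still did, among 21 genes called in the whole table.

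**Figure D5:**
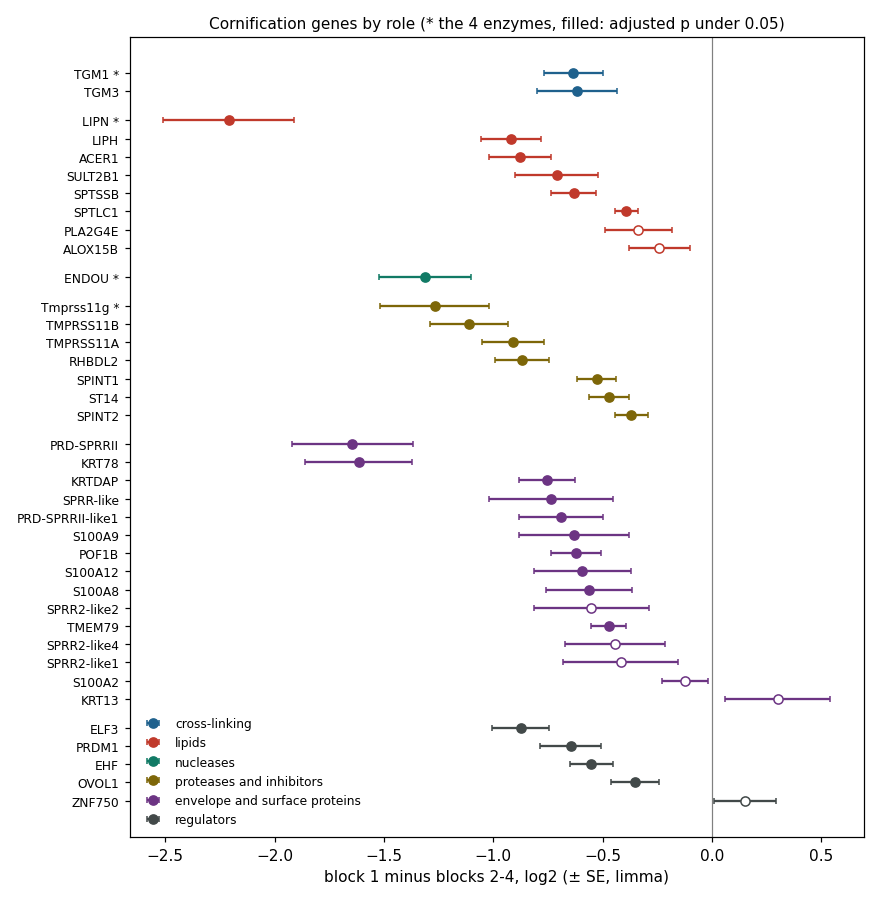
Difference of block 1 from blocks 2–4 (log2, horizontal axis, ± SE from limma) for 38 cornification genes grouped by role, with filled points for an adjusted p under 0.05 and asterisks at the 4 enzymes. All filled points lie to the left of 0, LIPN lies farthest out at -2.21, and KRT13 (0.30) and ZNF750 (0.15) lie to the right without passing.

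The genes with the pattern most like each enzyme were sought by r over the 62 sheep among the genes with a symbol, as a description. For LIPN they were MAL, a membrane protein of epithelial surfaces (0.94), the phosphatase DUSP14 (0.94), the glycosyltransferase GCNT3 (0.93), KRT78 (0.92) and PROSER2 (0.92). For TGM1 they were ACLY, which makes cytosolic acetyl-CoA from citrate (0.94), TMPRSS11B (0.92), the sodium and glucose cotransporter SLC5A1 (0.92), SULT2B1 (0.91) and ENDOU (0.91). ENDOU was followed by TMPRSS11B (0.96), KRT78 (0.95), DUSP14 (0.94), PROSER2 (0.94) and the disulfide isomerase P4HB (0.93). Tmprss11g was followed by TMPRSS11B (0.92), ENDOU (0.91), SULT2B1 (0.91), SLC5A1 (0.90) and TGM1 (0.89). TMPRSS11B thus stood among the 5 for TGM1, ENDOU and Tmprss11g and not for LIPN.

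Of all 16010 other genes, ENDOU ranked 7 by r with TGM1 and 2 with Tmprss11g, and LIPN ranked 50 with ENDOU, 261 with TGM1 and 285 with Tmprss11g. In blocks 2–4, r of TGM1 with ACLY was 0.89 and was the highest of all genes, r of ENDOU with TMPRSS11B was 0.79 and ranked 2, and r of LIPN with MAL was 0.68 and ranked 15. No gene had r above 0.8 with LIPN in blocks 2–4, where over all 62 sheep 197 genes did. That count fell for the other enzymes as well, from 236 to 1 for ENDOU, from 149 to 8 for TGM1 and from 90 to 2 for Tmprss11g. All these values share the libraries, and the high ones over all sheep carry the difference of block 1.

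No relation of the 4 genes with CH4, DMI or live weight passed the test. CH4 production ran from 13.4 to 34.6 g/d over 62 sheep, among them the sheep oz151 of block 3, whose labeled value is the same as that of another sheep of the block and without which the slopes kept their sign and did not pass. The median of CH4 production was 25.6 g/d in block 1 and 23.8, 22.8 and 22.7 g/d in blocks 2, 3 and 4, so that pooled slopes also carry the block. The slope on CH4 production was -0.066 log2 units per g/d for Tmprss11g (SE 0.026, limma adjusted p = 0.40), -0.040 for ENDOU (SE 0.024), -0.023 for TGM1 (SE 0.014) and -0.010 for LIPN (SE 0.038, adjusted p = 0.97), with 0.0125% of all genes called. For LIPN the slope was -0.017 in block 1 (SE 0.10), -0.016 in block 2 (SE 0.022), 0.091 in block 3 (SE 0.040) and 0.047 in block 4 (SE 0.018), none of which passed, and the sign of the pooled slope turned once test block was in the fit (0.021, SE 0.029).

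DMI and CH4 yield, the CH4 production per kg of DMI, were taken over 61 sheep without oz151, whose labeled DMI of 79.5 g/d lies far under the next lowest value of 0.376 kg/d. Median DMI was 1.42 kg/d in block 1 and 1.24, 1.12 and 1.03 kg/d in blocks 2, 3 and 4, so that pooled slopes on it also carry the block. The slope on DMI was -1.37 log2 units per kg/d for Tmprss11g (SE 0.43, limma p = 0.0021, adjusted p = 0.19), -1.06 for ENDOU (SE 0.39, adjusted p = 0.26), -0.83 for LIPN (SE 0.62, adjusted p = 0.63) and -0.53 for TGM1 (SE 0.23, adjusted p = 0.35). For Tmprss11g it was -3.27 in block 1 (SE 1.22), -0.30 in block 2 (SE 0.58), 0.80 in block 3 (SE 0.45) and -0.78 in block 4 (SE 0.40), so that the slope of block 1 was the steepest and the blocks did not share a sign. The difference of the slope in block 1 from that in blocks 2–4 was -2.94 (SE 0.94, limma p = 0.0027), and it did not pass over all genes (adjusted p = 0.38). On CH4 yield the slopes ran from 0.014 for TGM1 (SE 0.021) to 0.084 for LIPN (SE 0.053) log2 units per g/kg, with limma adjusted p between 0.58 and 0.85. In limma 0 genes passed for DMI (1899 at an unadjusted p under 0.05) and 0 for CH4 yield (1521 at an unadjusted p under 0.05), that is 0% for both.

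Live weight ran from 47 to 87.5 kg. The slope was -0.037 log2 units per kg for Tmprss11g (SE 0.015, limma p = 0.015, adjusted p = 0.44), -0.026 for ENDOU (SE 0.014), -0.020 for TGM1 (SE 0.0079, adjusted p = 0.42) and -0.0080 for LIPN (SE 0.022), with 0.0187% of all genes called. In block 1 the slopes were -0.087 for Tmprss11g (SE 0.031), -0.070 for ENDOU (SE 0.030), -0.049 for LIPN (SE 0.046) and -0.044 for TGM1 (SE 0.016). None of these passed (limma adjusted p between 0.92 and 0.95). The heaviest sheep (87.5 kg) was in block 1, with rank 3 from the bottom in LIPN and 2 in TGM1, ENDOU and Tmprss11g. In the other blocks the slopes of LIPN in block 2 (0.0062) and block 4 (0.022) and of Tmprss11g in block 3 (0.0016) were above 0, and the rest were below 0. No trait slope of the 4 genes differed between block 1 and blocks 2–4 after adjustment, and in limma 0 of all genes did for any of the 4 traits (1787, 560, 1697 and 673 at an unadjusted p under 0.05 for CH4 production, CH4 yield, DMI and live weight).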

How the data were processed

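The ventral rumen wall of 62 sheep was measured by stranded, ribosomal RNA depleted, paired-end RNA sequencing. The authors used TopHat with Bowtie2 for alignment to the sheep gene models of Ensembl and some added models, counted uniquely mapped reads with HTSeq and deposited log2 CPM values from voom. The processing notes of the submitters also name edgeR and limma. Whole reads were recovered from the log2 values (100% whole, tolerance 0.01) and served only to state depth and for 1 alternative. Sheep were grouped by the test block in the labels. Genes were compared with limma 3.58.1 in R 4.3.3 (trend of variance on level), with Benjamini-Hochberg adjustment over 16011 genes and a threshold of 0.05. The spread was compared with the same fit on absolute deviations from the group median. Relations and ratios used 2-sided permutation tests (100000 permutations) in Python 3.11.15 with numpy 2.4.6. Named were the 4 enzymes, the 5 genes with a symbol most correlated with each, and genes of a cornification list. The enzymes and lists were chosen with earlier results of these data known. The fits were tested on simulated data. Alternatives were muscle and epithelial covariates, depth, filters, weights, scaling, the log2 offset and leaving out sheep. The NZ animals, mean retention time, gene sequences and coordinates were not analysed here.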

Additional observations from a re-analysis of the deposited data

How the results depend on the processing

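The lower level of all 4 genes in block 1 kept its direction and its call under a depth covariate, a filter at 3 CPM, array weights, no variance trend, voom weights, median centring and log2(CPM + 1). Without each sheep in turn the differences ran from -2.37 to -1.96 for LIPN, from -1.42 to -1.10 for ENDOU, from -1.39 to -1.07 for Tmprss11g and from -0.70 to -0.52 for TGM1, all passing, and the count of genes called ran from 5197 to 6374. That count was 5842, and it was 2300 with the muscle mean, 3628 with the textbook muscle list and 459 with the epithelial list in the fit. With the epithelial list the difference of TGM1 turned to 0.12. Among blocks 2, 3 and 4, limma called 1 gene, 4 with the muscle mean, 4 at 3 CPM or more and 0 with centring (1125 at an unadjusted p under 0.05). For spread, 326 genes were called, 21 on muscle residuals and 492 with deviations from the mean.

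Slopes on CH4 production called 2 genes, and 4 with test block, 10 with block and muscle, 0 in blocks 2–4 alone and 0 at 3 CPM or more (2188 and 875 at an unadjusted p under 0.05). Slopes on live weight called 3, and 0 with block (1451 at an unadjusted p under 0.05), 40 with block and muscle and 1 at 3 CPM or more. Slopes on CH4 yield called 0, and 2 with oz151. Uncalled slopes that changed sign were those of LIPN on CH4 production (0.021 with block, 0.0076 with block and muscle, 0.032 in blocks 2–4) and on DMI (0.11, 0.025 and 0.51), of TGM1 on DMI in blocks 2–4 (0.020), and of TGM1 on CH4 yield (-0.012 with block, -0.013 with block and muscle, -0.00052 with oz151). In blocks 2–4 those on CH4 yield were -0.016 for LIPN, -0.019 for TGM1, -0.00055 for ENDOU and -0.0063 for Tmprss11g.

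Within single blocks of 14 to 16 sheep several relations did not pass. The muscle mean had r = -0.48 (block 3) and -0.47 (block 4) with ENDOU, and -0.15 (blocks 2–4), -0.33, -0.0076 and -0.070 (blocks 2, 3 and 4) with Tmprss11g. LIPN had r = 0.16 (blocks 2–4), 0.27, 0.20 and 0.030 (blocks 2, 3 and 4) with TGM1, 0.50 (block 2) and -0.022 (block 4) with ENDOU, and -0.15 (blocks 2–4), -0.076, -0.022 and -0.32 (blocks 2, 3 and 4) with Tmprss11g. In block 3, TGM1 had r = 0.50 with ENDOU and 0.48 with Tmprss11g. On residuals from a fit on the muscle mean without block, the ratio of LIPN to Tmprss11g differed by -0.55 (permutation p = 0.093) and that of ENDOU to Tmprss11g by 0.0029. The causes were not tested. No paired analysis was possible because each sheep was tested in 1 block and gave 1 library. At the lowest levels, LIPN and Tmprss11g rest on 29 and 25 reads. The permutation test of Welch's statistic and the ratios were chosen after seeing the data.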
